A study of Rattus norvegicus with 13 samples.

Results

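Chondrocytes that met IL-1β with glucosamine already in the medium were compared with chondrocytes that met IL-1β alone. The comparison rests on 8 of the 13 arrays of the study, 4 labelled as glucosamine and IL-1β (called both agents below) and 4 labelled as IL-1β. The cells came from femoral head cartilage of male Wistar rats aged 2 months, were grown in serum-containing medium to the second passage, and were pooled before they were seeded into flasks. Both agents meant 20 mM glucosamine for 20 hours, with 10 ng/ml IL-1β added after 6 hours and left for 14 hours, and IL-1β alone meant the same 14 hours without glucosamine. The other 5 arrays, 3 of untreated cultures and 2 of cultures with glucosamine alone, give levels to set beside the comparison. Each array is RNA of a separate flask, and because all flasks hold cells of a single pool, the p-values measure the spread between flasks and not between animals.

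IL-1β is an inflammatory cytokine that binds its receptor on chondrocytes and, through the adaptor MyD88 and IRAK kinases, activates NF-κB and the MAP kinases. In cartilage it is known for inducing chemokines, prostaglandins, nitric oxide and matrix-degrading proteases and for lowering the synthesis of collagen and aggrecan. Glucosamine is an amino sugar that enters cells through glucose transporters and is phosphorylated into the hexosamine pathway, whose product feeds the glycosylation of proteins and the assembly of glycosaminoglycans.

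Of 29263 probe sets tested, 3349 (11.4%) were lower with both agents and 3473 (11.9%) were higher at a Benjamini-Hochberg adjusted p under 0.05 in limma. Counted once per gene, 2039 of 13748 genes (14.8%) were lower and 2173 (15.8%) were higher. The changes downward were the larger ones. Among the lower genes 824 changed at least 2-fold, 286 at least 4-fold and 70 at least 10-fold, and among the higher genes these counts were 346, 60 and 6. The median log2 fold change of all genes was 0.03. The 4 arrays of one group did not overlap those of the other for 3771 genes (27.4%). Signals are in the arbitrary units of the array, probe sets of different genes cannot be compared in level, and signals below 5.71 were set to that floor before the log2 scale was taken, so that a fold against a group with an array at or under the floor is given as "at least". Folds are ratios of geometric means of these floored signals. Group means are followed by the SD and log2 fold changes by their standard error. Less RNA per cell and fewer cells that contain it cannot be told apart in such cultures.

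**Figure D1:**
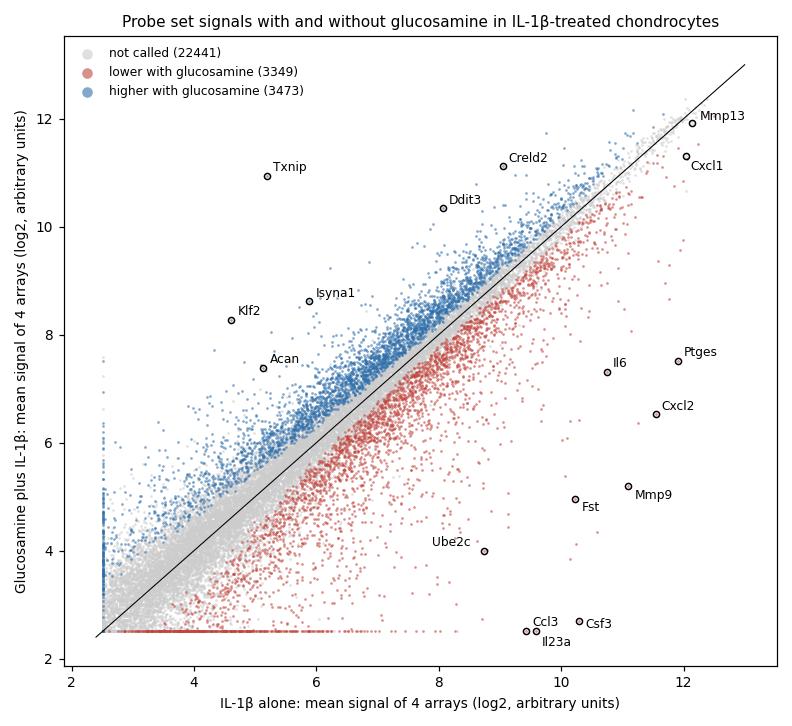
Group mean signal on the log2 scale with IL-1β alone (x axis) and with both agents (y axis) of each probe set tested. Coloured points are the 3349 probe sets that were lower and the 3473 that were higher. Coloured points far from the diagonal line lie more often below it than above it.

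The array of replicate d stood apart in both groups. Its 1st percentile of signal was -36.8 with both agents and -31.0 with IL-1β alone, against -6.47 to -5.69 on the other 6 arrays. Without both replicate d arrays, 1937 of the 2039 lower genes and 2080 of the 2173 higher genes were called again in the same direction and none in the opposite one. RNA quality did not separate the groups. The ratio of 3' to 5' signal of actin was 1.36 to 1.75 with both agents and 1.3 to 2.32 with IL-1β alone (exact permutation test, two-sided, p = 0.66, n = 4 per group, smallest possible p 0.0286). Chondrocyte markers were present, with summed signals of their 6 genes of 5639 to 6790 with both agents and 5100 to 6187 with IL-1β alone. Among the markers of other cell types, the 5 adipocyte markers summed to 97.6 to 209.7 against 643 to 1116, with Fabp4 and Cidec lower (named, as the other markers here, after their values were seen), the 10 macrophage and leukocyte markers to 111 to 235 against 233 to 359, with Cd68 lower (adjusted p = 0.0533 without the IL-1β array a), and the 4 neutrophil markers to 2.63 to 47.1 against 81.2 to 105.9, with Camp lower. The 3 lymphocyte markers tested summed to 30.5 to 135.6 against 25.8 to 124.4, and 2 others were at the floor. Adipoq, a defining marker of adipocytes, had mean signals of 13.8 with both agents and 11 with IL-1β alone, Ptprc, the pan-leukocyte marker, of 2.71 and 8.18, and S100a8, of neutrophils, of 6.12 and 8.91. The part of such cells in the results was not tested. In limma none of the 3 lymphocyte, 5 endothelial and 5 muscle markers was called (0, 1 and 1 at an unadjusted p under 0.05, and none by analysis of variance), 1 of 3 osteoblast markers, Ibsp, was lower, and 4 of 7 fibroblast markers were lower and 1 higher.

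The 4 largest falls among genes whose groups did not overlap were those of the secreted cytokines Csf3, Il23a, Ccl3 and Csf2. Of 21 interleukins and colony-stimulating factors tested, 11 were lower with both agents and none was higher, with a median log2 fold change of -0.65 beside 0.03 for all genes. Csf3, the granulocyte colony-stimulating factor, had signals of 978, 1255, 1290.2 and 1492 on the IL-1β arrays a to d and of 8.51, 1.41, 9.11 and 6.79 with both agents. Every array with both agents was thus near or below the floor, where untreated cultures also lay, and the difference was at least 167-fold (log2 fold change -7.39 ± 0.25, adjusted p = 6.9e-09). Il23a, the subunit that makes interleukin 23 distinct from interleukin 12, read 569, 804, 746 and 947 with IL-1β and stayed below 0 on all 4 arrays with both agents, a difference of at least 132-fold (adjusted p = 1.3e-09). Csf2, the growth factor of granulocytes and macrophages, went from 1058, 1260.3, 1091 and 1434 to 11.7, 14.8, 26.6 and 17.1 (71.7-fold, adjusted p = 2.1e-06), although its other probe set was not called. IL-1 itself is made by stimulated cells and acts back on them. Il1b fell from 113, 134, 90.2 and 140.1 to 0.334, 2.76, 1.45 and 5.96, at least 20.4-fold (adjusted p = 4.1e-08), and a second probe set of Il1a was lower along with the first. Il6, a cytokine of the acute phase response, read 1943, 1581, 1687 and 1659.9 with IL-1β and 156, 159.7, 197 and 123 with both agents, 10.9-fold lower (adjusted p = 1.8e-08). All 4 of its signals with both agents lay above the untreated mean of 57.3 ± 1.16. Il34 and Il18 were not called, with log2 differences of -0.04 (95% interval -0.23 to 0.15) and -0.16 (95% interval -0.96 to 0.65).

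Chemokines, which draw leukocytes into tissue, changed to very unequal degrees. Of 14 CXC and CX3C chemokines 9 were lower and none was higher (median log2 fold change -1.90), and of 15 CC chemokines 7 were lower (median -0.71). Ccl3, a chemokine for monocytes, read 769, 601, 601 and 791 with IL-1β and -2.37, 0.0427, -0.0645 and 12.7 with both agents, at least 98.2-fold lower (adjusted p = 1.8e-08). Cxcl2, a neutrophil chemokine, went from 2904, 2876, 2582 and 3591 to 74.5, 69.9, 118 and 107 (32.9-fold, adjusted p = 5.4e-05), and Cxcl6, another of that kind, from 345, 452, 472 and 497 to 15.8, 14.1, 15.6 and 19.3 (27.2-fold, adjusted p = 1e-08). In these 3 genes the highest array with both agents lay more than 10-fold below the lowest IL-1β array. Cxcl1, a close relative of Cxcl2, read 4142, 3534, 4058 and 5107 with IL-1β and 2427, 2662, 2306 and 2788 with both agents. Its groups did not overlap, yet the difference of 1.64-fold did not pass the test over 4 groups (adjusted p = 0.31) and passed it when the 8 arrays were fitted alone (adjusted p = 0.0073). The glucosamine arrays a and b, which share the estimate of spread, read 523 and 76.0 for this gene. Ccl20, which attracts lymphocytes and dendritic cells, likewise went from 4356, 3622, 3950.3 and 4896 to 1370.0, 1614, 1663 and 1792 without overlap, with an adjusted p of 0.052 over 4 groups and 0.00028 over the 8 arrays. With both agents Cxcl1 and Ccl20 therefore stayed far above their untreated means of 71.7 ± 3.83 and 26.9 ± 1.70. Ccl7 was in between, from 2525, 2910.5, 3093 and 3775 to 571, 685, 682 and 713 (4.61-fold, adjusted p = 3.9e-05). Cxcl12, a chemokine that stromal cells make at rest, differed from the others in its baseline. It read 344, 312, 271 and 378 with IL-1β, 14.1, 17.0, 23.3 and 27.0 with both agents, and 389 ± 33.6 in untreated cultures, so that both agents left it 16.4-fold below IL-1β alone (adjusted p = 4.2e-08) and also below every untreated array.

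The receptors of these ligands were mixed. Of 21 cytokine receptors and decoys, 2 were higher and 3 lower, which is no larger share than among all genes. Il1r1, the signalling receptor of IL-1, was lower, at 169.5, 172, 153 and 174 with IL-1β and 23.2, 26.5, 29.5 and 39.6 with both agents, 5.73-fold (log2 fold change -2.52 ± 0.15, adjusted p = 2.4e-07), with 1 of its 2 other probe sets lower and 1 not called. Cxcr4, the receptor of Cxcl12, was 2.65-fold lower (adjusted p = 0.00015) and Il6st, the shared chain of the interleukin 6 receptor family, 1.57-fold lower (adjusted p = 5.7e-05). Il13ra2, a decoy for interleukin 13, read 82.0, 79.4, 68.5 and 97.1 with IL-1β and 55.3, 72.6, 56.8 and 90.8 with both agents. That difference of -0.27 on the log2 scale (95% interval -0.71 to 0.18, adjusted p = 0.47) did not pass the test, although with array quality weights it did (-0.40, adjusted p = 0.0367), and both groups lay far above the untreated mean of 2.38 ± 0.563.

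**Figure D2:**
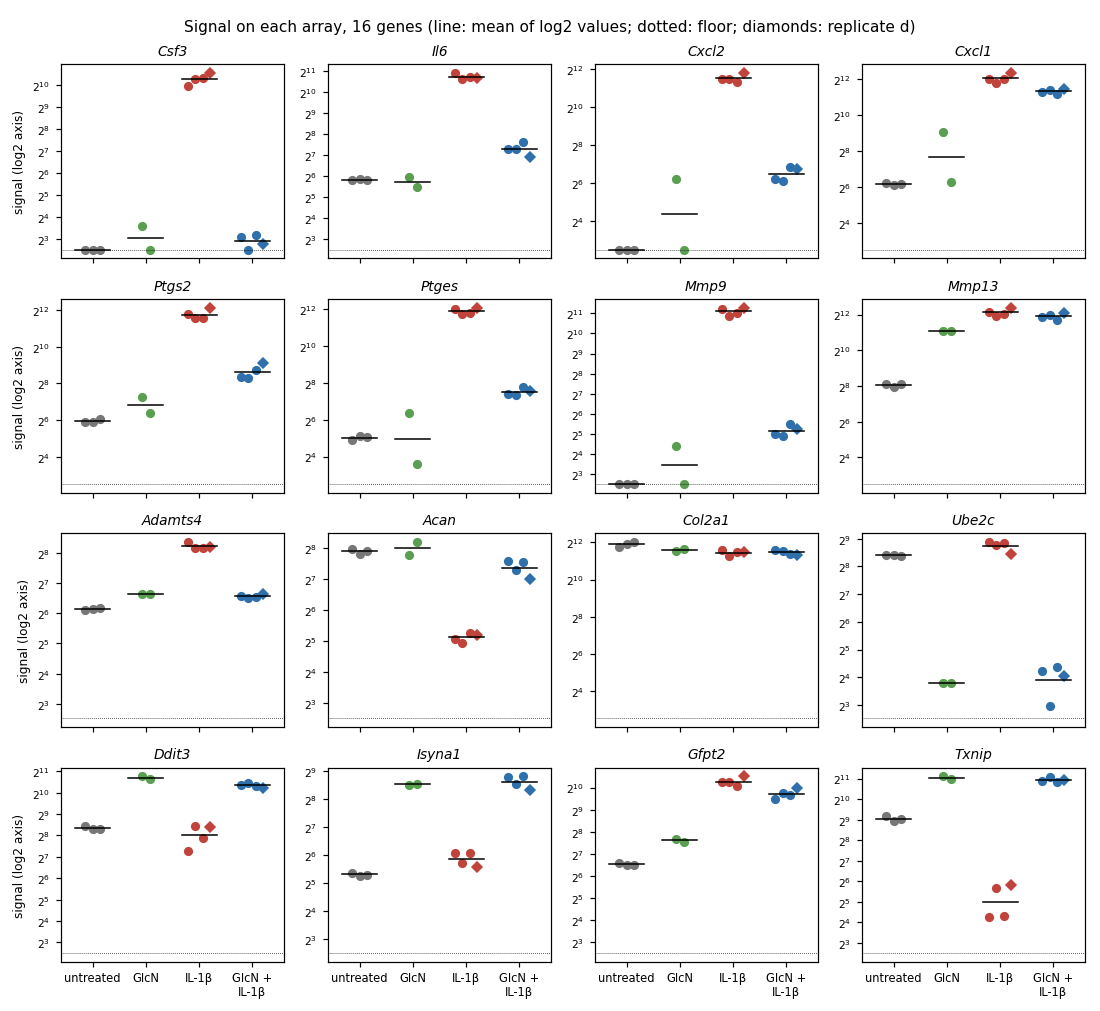
Linear signal on a log scale (y axis, values below the floor drawn at the floor) of 16 genes on each array of the 4 groups (x axis). Each point is an array, diamonds are replicate d, and Mmp13 and Col2a1 are the genes whose groups with IL-1β and with both agents overlap.

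The feedback genes of NF-κB, which the pathway induces and which restrain it, moved with its other targets. Of 32 genes for NF-κB subunits, inhibitors and IL-1 signalling, 19 were lower and 3 higher (median log2 fold change -0.69). Tnfaip3, the ubiquitin-editing enzyme A20, read 444, 508, 289 and 459.6 with IL-1β and 31.2, 47.4, 36.3 and 29.1 with both agents (11.8-fold lower, adjusted p = 4.3e-06). Ripk2, a kinase that carries signals to NF-κB, was 5.53-fold lower, Tnip1, a partner of A20, 4.31-fold lower, and Irak3, an IRAK family member that blocks the pathway, 3.87-fold lower (adjusted p = 3.8e-08, 1.3e-09 and 9.7e-08). Of the 19 lower members 17 stayed above every untreated array with both agents. Among all 2039 genes called lower 444 did, and among all genes tested 23.6%, while 20.3% lay below every untreated array. The 3 higher members were Tlr4, Irak1 and Myd88. Tlr4, a receptor that uses the same adaptor, was 2.12-fold higher (adjusted p = 7.1e-06), the kinase Irak1 1.46-fold higher (adjusted p = 8.5e-05) and the adaptor Myd88 1.22-fold higher (adjusted p = 0.011). Relatives of these were lower (named after their values were seen), with log2 fold changes of -0.99 for the receptor Tlr2 and -1.76 for the kinase Irak2 (adjusted p = 2e-05 and 1.5e-07), and the other 10 members, Irak4 and Traf6 among them, were not called. Rela, the NF-κB subunit p65, was not called, at 264, 252, 311 and 265 with IL-1β and 287, 236, 277 and 198 with both agents (95% interval of the log2 difference -0.41 to 0.13).

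The sequence that RefSeq places around the start of Tnfaip3, 250 bases before it to 50 after it, is shown because it holds 3 matches to the NF-κB motif and 1 to AP-1 (TGANTCA), the motifs of the factors that IL-1β activates. Promoters were shown for their motifs and chosen after values and motifs had been seen, except that of Il23a, which is the first in the order of size that the promoter table holds. Motifs were searched on both strands and capitals mark each match of those searched (NF-κB by name, TGANTCA of AP-1, TTTGAA and GCGGGAA of cell cycle genes, TGATGNAA of ATF4, CCACG of ER stress, the E-box CACGTG, the forkhead letters TGTTTAC and the antioxidant element TGACNNNGC). A match is a description of letters, and matches may overlap. An NF-κB match stood in 44.0% of the 25 promoters of this list, in 66.7% of the 15 of its lower members, in 50.0% of the 8 of the lower CXC chemokines, and in 9.66% of the 10598 promoters of genes tested. It stood in 8.33% of the 12 promoters of interleukins and colony-stimulating factors, in 16.7% of the 6 of their lower members, and in 10.7% of the 1544 of all genes called lower. Coordinates are of the build GRCr8. The Il23a window holds a CCACG match alone.
Tnfaip3 (chr1:15543930-15544229, minus strand): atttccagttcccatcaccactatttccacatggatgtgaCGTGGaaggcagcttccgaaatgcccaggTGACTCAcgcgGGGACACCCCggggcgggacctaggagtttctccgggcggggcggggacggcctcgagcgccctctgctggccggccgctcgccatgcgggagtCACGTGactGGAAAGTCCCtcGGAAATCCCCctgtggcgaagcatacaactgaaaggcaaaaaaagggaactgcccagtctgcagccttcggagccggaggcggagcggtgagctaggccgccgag
Il23a (chr7:1308385-1308684, minus strand): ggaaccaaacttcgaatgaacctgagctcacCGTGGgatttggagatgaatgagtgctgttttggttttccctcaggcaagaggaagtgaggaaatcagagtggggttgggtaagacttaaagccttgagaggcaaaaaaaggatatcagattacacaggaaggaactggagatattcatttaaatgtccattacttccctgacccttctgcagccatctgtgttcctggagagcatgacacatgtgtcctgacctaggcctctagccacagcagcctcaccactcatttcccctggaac

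Prostaglandin E2 is made in sequence by a phospholipase, a cyclooxygenase and a terminal synthase, and the inducible gene of each step was lower. Pla2g2a, the secreted phospholipase, went from 1921, 1832, 2223 and 2367 to 348, 351, 404 and 329 (5.81-fold, adjusted p = 6.4e-08). Ptgs2, the inducible cyclooxygenase, went from 3479, 3007, 2987 and 4503 to 321, 319, 427 and 555 (8.73-fold, adjusted p = 1.1e-06). Ptges, the inducible synthase, went from 4088, 3387, 3586 and 4323 to 170.2, 163, 215 and 187 (21.0-fold, adjusted p = 1.5e-05). Against this, the constitutive cyclooxygenase Ptgs1 was higher, at 207, 209, 167 and 186 with IL-1β and 443, 522, 452 and 555 with both agents (2.56-fold, adjusted p = 1.5e-06), and the constitutive synthase Ptges3 was not called (95% interval of the log2 difference -0.16 to 0.19). Slco2a1, which carries prostaglandins into cells, was at least 10.2-fold lower (adjusted p = 1.1e-06). In all, 4 of 24 genes of this system were higher and 6 lower. For nitric oxide the probe set annotated to the inducible synthase alone was at the floor on all 13 arrays and was not tested. Another probe set, annotated jointly to the synthase gene and to a pseudogene of it and so assigned to neither here, read 990, 838, 1129 and 1178 with IL-1β, 72.6, 48.1, 79.0 and 64.6 with both agents and -0.45 to 1.12 in untreated cultures (15.8-fold lower with both agents, adjusted p = 1.8e-08). The supply of arginine and of the cofactor tetrahydrobiopterin was lower in part. Ass1, which remakes arginine from citrulline, went from 2180.2, 2092, 2276 and 2440.4 to 262, 271, 307 and 229 (8.44-fold, adjusted p = 0.00017), Gch1, the first enzyme of tetrahydrobiopterin synthesis, was 3.74-fold lower (adjusted p = 4.7e-08), and the arginine transporter Slc7a2 3.35-fold lower (adjusted p = 0.00018), whereas Asl, Pts and Slc7a1 of the same supply, named after their values were seen, were not called (adjusted p = 0.72, 0.85 and 0.10). Genes of polyamine metabolism, the other route of arginine, were mixed. The spermidine acetyltransferase Sat1 was 1.58-fold higher (adjusted p = 0.00011) and the spermine synthase Sms 1.56-fold higher (adjusted p = 0.00033), whereas Odc1 was not called (95% interval -0.25 to 0.27). Lower were the arginases, which lead arginine into this route (log2 fold changes -1.97 and -0.87, adjusted p = 9.2e-07 and 0.039). Their mean signals with both agents lay below the floor. The antizyme inhibitor, a regulator of Odc1, was lower as well (-0.84, adjusted p = 8.5e-06). These lower genes were picked after their values were seen. Over the list, 4 of 20 genes were higher and 9 lower.

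Acute phase and complement genes followed the cytokines, with 8 of 20 lower and 2 higher. Saa3, an acute phase apolipoprotein, read 584, 359, 418 and 338 with IL-1β and 33.9, 34.4, 42.5 and 42.9 with both agents (10.9-fold lower, adjusted p = 1.5e-07), and its signals with both agents spanned the untreated mean of 39.1 ± 7.16. C3, the central complement protein, was 3.04-fold lower (adjusted p = 5.9e-07). Interferon response genes were mixed, 4 of 28 higher and 4 lower, no larger shares than among all genes, and 8 higher without both replicate d arrays. The transcription factor Irf1 was 3.95-fold lower (adjusted p = 0.00023) and the immunoproteasome subunit Psmb9 2.11-fold lower (adjusted p = 2.9e-06). Rsad2, the antiviral protein viperin, went the other way, from 6.33, 13.2, 6.94 and 11.6 to 57.0, 60.5, 54.1 and 42.8 (5.87-fold higher, adjusted p = 3.2e-05). Its signals in untreated cultures (-1.66 ± 0.604) and on the 2 glucosamine arrays (10.0 and 7.73) were all below those with both agents. Among TNF family members, Cd40, a receptor on antigen-presenting and stromal cells, was at least 10.9-fold lower (adjusted p = 1.6e-07) and Tnfrsf1b, the second TNF receptor, at least 4.40-fold lower (adjusted p = 0.00055), while Tnfrsf1a, the first, was not called (95% interval -0.00 to 0.30) but passed as higher without both replicate d arrays (log2 difference 0.22, adjusted p = 0.0218) or without that of IL-1β (adjusted p = 0.018). This list had 7 of 20 lower and 2 higher. The leukocyte adhesion molecule Icam1 went from 2139, 1975, 2031 and 2478 to 1052, 1063, 1061 and 1053 (2.03-fold, adjusted p = 8.7e-07). Of its list of 16 adhesion molecules, 5 were lower and 1 higher, and Cd44, the hyaluronan receptor, was not called by its representative probe set, whereas a second one was lower.

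Matrix metalloproteinases split by gene. Of 16 tested, 5 were lower and 1 was higher, with a median log2 fold change of -0.14. Without both replicate d arrays 6 were lower and 3 higher. Mmp9, a gelatinase, went from 2356, 1874, 2051 and 2496 to 31.8, 30.1, 45.6 and 38.6 (60.5-fold, adjusted p = 1.2e-07), and its other probe set was lower as well. Mmp12, an elastase, went from 1287, 1042, 1072 and 1128 to 81.0, 88.8, 79.7 and 90.2 (13.3-fold, adjusted p = 2.2e-06), and Mmp10, a stromelysin, from 319.6, 235, 243 and 287 to 34.4, 44.2, 44.0 and 35.8 (6.84-fold, adjusted p = 6.3e-07). Mmp13, the collagenase that cleaves type II collagen, was different. It read 4545, 3939.5, 4121 and 5385 with IL-1β and 3788, 4038, 3284 and 4375 with both agents, with overlapping groups, a log2 difference of -0.21 (95% interval -0.45 to 0.03, adjusted p = 0.22) and an untreated mean of 268 ± 17.8. After quantile normalization the log2 difference of -0.20 passed (adjusted p = 0.0435). On the 2 arrays with glucosamine alone it read 2127 and 2127. Mmp3, the other stromelysin, was 1.37-fold lower (adjusted p = 0.024), at 5912, 4959.6, 5556 and 6721 with IL-1β and 4047, 4576, 3476 and 4796 with both agents. With the 8 arrays fitted alone its adjusted p was 0.072, and without single arrays it was 0.0571 (IL-1β a), 0.0647 (IL-1β d), 0.0638 (both agents a) or 0.0688 (both agents c). The gelatinase Mmp2 and the membrane protease Mmp14 were not called (95% intervals -0.11 to 0.21 and -0.03 to 0.42), although Mmp14 passed without the both-agents array c (log2 difference 0.29, adjusted p = 0.0227), and Mmp19 was 1.40-fold higher (adjusted p = 0.002). Several ADAMTS proteases, a family that holds the aggrecanases, were lower. Adamts4 went from 329.7, 288, 289 and 295 to 95.5, 91.5, 92.2 and 98.9 (3.18-fold, adjusted p = 9.5e-09). The study's own list of signals instead has ADAMTS-4 higher with both agents than with IL-1β alone, and the reason was not tested. Adamts1 was 2.78-fold lower (adjusted p = 6e-06) and Adamts15 3.95-fold lower (adjusted p = 0.0005). In that family 6 of 17 genes were lower and 1 was higher. Of 19 protease inhibitors and genes of plasminogen activation, 7 were lower and 5 higher. The inhibitor Timp3 was 1.69-fold higher (adjusted p = 6.3e-05), at 1290.1, 1039, 980.3 and 1111 with IL-1β and 1960.5, 1974, 1652 and 1850.2 with both agents, and its 3 other probe sets were higher too, while Timp2 was not called (95% interval -0.16 to 0.27). The activator Plat was 2.10-fold lower, its cell surface partner Plaur 3.89-fold lower and the Kunitz inhibitor Tfpi2 4.35-fold lower (adjusted p = 7.8e-05, 4.6e-05 and 1.8e-07).

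Most cartilage collagens and proteoglycans were not called. Of 20 tested, 5 were higher with both agents (25%, beside 15.8% of all genes) and none was lower (beside 14.8%). The median log2 fold change was 0.08, and with the replicate letter as a block 1 member was lower. Acan, which encodes the core protein of aggrecan, went from 33.7, 30.9, 38.8 and 37.0 to 193, 159, 189 and 129 (4.73-fold, adjusted p = 3.9e-07). Hapln1, the link protein that ties aggrecan to hyaluronan, went from 59.4, 68.6, 83.3 and 92.3 to 163, 186, 161 and 156 (2.22-fold, adjusted p = 4.5e-05), and Omd, a small keratan sulfate proteoglycan, was 1.96-fold higher (adjusted p = 1.1e-05). All 5 higher genes nevertheless stayed below every untreated array, where the mean was 240.2 ± 13.7 for Acan and 662 ± 21.9 for Hapln1. Of all 2173 genes called higher, 296 stayed below every untreated array. Col2a1, type II collagen, read 3139, 2422, 2831 and 2857 with IL-1β and 3074, 3005, 2657 and 2578 with both agents (95% interval of the log2 difference -0.20 to 0.22, adjusted p = 0.99). Of its 2 other probe sets, 1 was higher and 1 not called. Fmod and Bgn, further small proteoglycans, were not called (95% intervals -0.32 to 0.09 and -0.30 to 0.15). The study's own list of signals has biglycan lower with both agents than with IL-1β alone, a difference whose reason was not tested either. In the fibrous matrix 10 of 39 genes were lower and 5 higher (8 higher without the both-agents array d or without both replicate d arrays), among them Col3a1, type III collagen, 1.70-fold higher (adjusted p = 2.3e-05), the proteoglycan Vcan 5.40-fold lower (adjusted p = 1.2e-07) and Fbn1, the core of microfibrils, 2.89-fold lower (adjusted p = 1.5e-06). Fn1, fibronectin, was not called (95% interval -0.32 to 0.16). Of 25 genes of hyaluronan and glycosaminoglycan metabolism, a list that also holds genes of hyaluronan breakdown, 8 were higher (32%) and 4 lower (16%). The median log2 fold change was 0.24, and among all genes 15.8% were higher and 14.8% lower. B3gat3, which completes the linker between protein and chain, was 2.57-fold higher (adjusted p = 9.2e-06), and Csgalnact2, which starts chondroitin chains, 1.91-fold higher (adjusted p = 9.2e-07). Ugdh, which makes the uronic acid precursor, was 2.11-fold lower (adjusted p = 2.2e-06), Chsy1, which extends chondroitin, 1.76-fold lower (adjusted p = 9.2e-07), and Has2, a hyaluronan synthase, 3.66-fold lower (adjusted p = 0.00034). Cemip, which takes part in breaking hyaluronan down and is counted among the 8 higher genes, was 2.12-fold higher (adjusted p = 3.7e-06).

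Growth factors and their antagonists were lower more often than higher. In BMP, TGF-β and activin signalling 18 of 39 genes were lower and 4 higher (median log2 fold change -0.55). Fst, follistatin, the soluble antagonist of activin, read 1151, 1115, 1095 and 1455 with IL-1β and 26.9, 26.4, 36.3 and 34.9 with both agents (38.8-fold lower, adjusted p = 1.3e-09). Inhba, the activin A chain itself, went from 3054, 2964, 2984 and 4213 to 393, 420.4, 534 and 651 (6.67-fold, adjusted p = 2.7e-07). Fst ended below its untreated mean of 172 ± 13.3, whereas Inhba stayed above its own of 239.6 ± 6.78. Among the bone morphogenetic proteins, Bmp7 went from 76.6, 73.7, 81.9 and 72.6 to 5.77, 5.87, 4.87 and 16.1 (adjusted p = 1.3e-05), Bmp6 was 5.08-fold lower and Bmp2 3.76-fold lower (adjusted p = 2.8e-08 and 9.6e-08), and their antagonist Nog, noggin, was 2.63-fold higher (adjusted p = 2e-05). Of 44 genes of the IGF, FGF, VEGF and EGF families 18 were lower and 5 higher (2 or 3 higher without any single array of the 8 but the IL-1β array d). Igfbp3, which binds insulin-like growth factors, went from 279, 229.6, 227 and 264 to 12.9, 12.5, 8.80 and 7.53 (24.5-fold, adjusted p = 4.5e-08), Angpt1, a ligand of endothelial Tie2, was 10.7-fold lower (adjusted p = 7.7e-08) and Fgf9, a growth factor of skeletal cells, 6.71-fold lower (adjusted p = 1.8e-07). Vegfc, a growth factor of lymphatic vessels, was 1.96-fold higher (adjusted p = 2.9e-05). Wnt and Notch genes were lower in 7 of 30 and higher in 1, with the Wnt antagonist Sfrp2 7.07-fold lower (adjusted p = 6.2e-06) and the Notch target Hes1 2.48-fold lower (adjusted p = 0.0022).

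Among transcription factors of the skeleton 7 of 23 were higher and 3 lower. Scx, scleraxis, a tendon factor, was 1.76-fold higher (adjusted p = 5.2e-06) and Epas1, the hypoxia-inducible factor 2α of hypertrophic cartilage, went from 2062, 1757, 1908 and 2100.0 to 613, 639, 566 and 585 (3.25-fold lower, adjusted p = 1.1e-08). Immediate early genes and their feedback phosphatases were lower in 19 of 43 and higher in 8. Egr1 was 6.07-fold lower, Dusp6, a phosphatase that turns ERK off, 6.27-fold lower, Dusp5, another of that kind, 5.74-fold lower and Spry1, which restrains growth factor receptors, 7.51-fold lower (adjusted p = 1.7e-06, 5e-06, 2.6e-07 and 9.5e-07). Klf2, a transcription factor known as a repressor of inflammatory genes in endothelium, was the largest rise of the list, from 25.4, 27.3, 24.5 and 20.5 to 356, 341, 307 and 233 (12.6-fold, adjusted p = 9.4e-09). Of its 4 other probe sets 2 were higher and 2 were not called. Atf3 was not called, at 256, 327, 228 and 399.8 with IL-1β and 301, 347, 279 and 383 with both agents (95% interval of the log2 difference -0.22 to 0.50), with an untreated mean of 27.8 ± 1.39.

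Genes of cell division were lower almost throughout. Of 48 genes of mitosis and chromosome segregation 44 were lower with both agents and none was higher, with a median log2 fold change of -3.00. Without both replicate d arrays the count was again 44 and the median -3.01. Ube2c, which loads ubiquitin for the anaphase-promoting complex, went from 471, 437, 457 and 348 to 18.7, 7.89, 20.9 and 16.4 (28.4-fold, adjusted p = 9.6e-08). Ccna2, cyclin A2, went from 187, 267, 207 and 256 to 10.1, 9.34, 11.3 and 5.81 (25.6-fold, adjusted p = 3.6e-08), and Ttk, a kinase of the spindle checkpoint, from 132, 161, 118 and 128 to 6.25, 6.54, 5.08 and 8.35 (at least 20.2-fold, adjusted p = 1.8e-08). Untreated cultures read 338 ± 8.62 for Ube2c, 239 ± 15 for Ccna2 and 106 ± 5.64 for Ttk. With both agents 42 of the 44 lower genes lay below all untreated arrays. Among all 2039 genes called lower 978 did, and among all genes tested 20.3%. The arrays with glucosamine alone read 13.9 and 13.7 for Ube2c, 10.8 and 8.07 for Ccna2 and 4.94 and 3.10 for Ttk. The 4 genes not called included Dlgap5, at 294, 329, 295 and 382 with IL-1β and 253, 297, 269 and 309 with both agents (95% interval -0.41 to 0.00), and Cks1b (95% interval -0.14 to 0.43). Of 43 genes of DNA replication 36 were lower and none was higher (median -1.21). Pclaf, a partner of the replication clamp PCNA, went from 377, 431, 347 and 421 to 17.4, 18.6, 16.4 and 20.1 (21.7-fold, adjusted p = 9.1e-10), and Mcm5, a subunit of the replicative helicase, was 8.91-fold lower (adjusted p = 1.2e-07). Of the 36 lower genes 30 lay below all untreated arrays, beside 978 of all 2039 genes called lower. Regulators of the G1 phase were not of 1 direction, with 6 of 21 higher and 4 lower. Ccnd1, cyclin D1, went from 1634, 1504, 1513 and 1812 to 465, 371, 483 and 621 (3.38-fold lower, adjusted p = 2.3e-06). The inhibitor Cdkn1c, p57, went from 46.3, 44.7, 43.3 and 47.0 to 205, 169.6, 158 and 154 (3.77-fold higher, adjusted p = 4.5e-08), whereas Cdkn1a, p21, was not called (95% interval -0.29 to 0.31).

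The windows around the starts of Ttk and Pclaf are shown for motifs known from cell cycle genes. The letters TTTGAA, the cell cycle homology region, stood in 69.0% of the 42 promoters of the mitosis list and in 12.2% of those of genes tested. They stood in 71.05% of the 38 of the lower members and in 12.5% of the 1544 of all genes called lower. In Ttk the match lies at positions 4 to 9 after the start. The letters GCGGGAA, the core of an E2F site, stood in 38.9% of the 36 promoters of the replication list and in 7.67% of those of genes tested. They stood in 43.3% of the 30 of the lower members and in 9.46% of those of all genes called lower. In Pclaf there are 2 matches, beginning 45 and 18 bases before the start.
Ttk (chr8:93634389-93634688, plus strand): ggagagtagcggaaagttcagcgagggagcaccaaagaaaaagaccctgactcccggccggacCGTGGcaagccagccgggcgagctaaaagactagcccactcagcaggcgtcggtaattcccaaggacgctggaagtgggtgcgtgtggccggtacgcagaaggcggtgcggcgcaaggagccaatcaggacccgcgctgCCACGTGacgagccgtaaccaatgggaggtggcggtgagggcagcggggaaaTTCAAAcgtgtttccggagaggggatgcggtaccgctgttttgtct
Pclaf (chr8:75315467-75315766, plus strand): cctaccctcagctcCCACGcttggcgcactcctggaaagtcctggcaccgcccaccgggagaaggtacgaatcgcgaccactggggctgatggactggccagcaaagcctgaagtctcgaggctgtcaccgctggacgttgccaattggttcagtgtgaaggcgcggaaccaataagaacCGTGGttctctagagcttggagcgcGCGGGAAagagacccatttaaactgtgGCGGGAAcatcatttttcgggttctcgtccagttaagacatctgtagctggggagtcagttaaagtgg

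**Figure D3:**
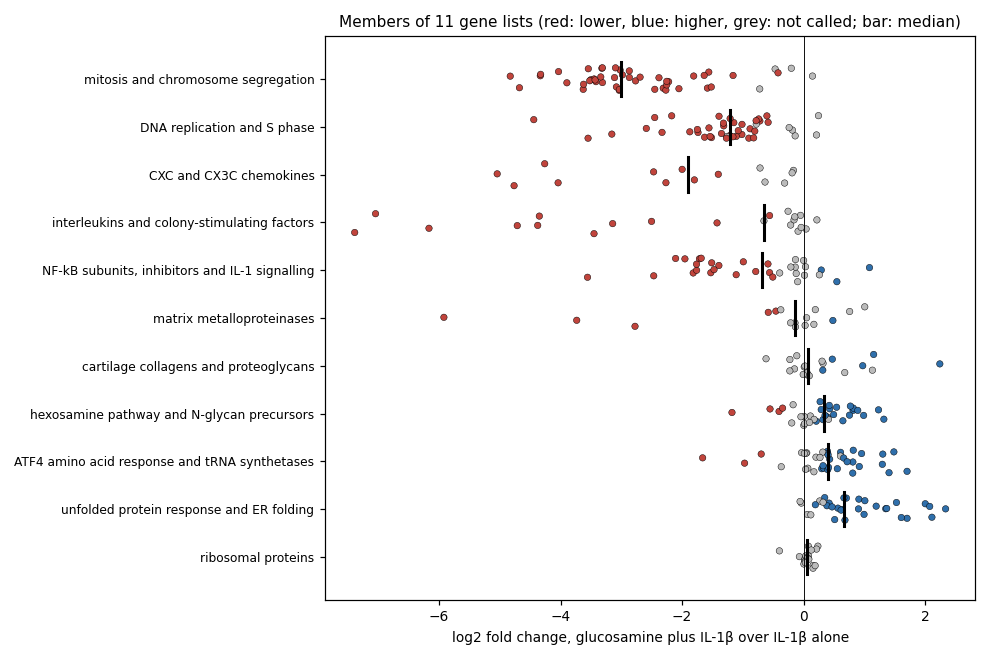
Log2 fold change of both agents against IL-1β alone (x axis) of each gene tested in selected gene lists (rows). Each point is a gene, coloured by its call, thick bars are medians and the thin vertical line is 0. The members of mitosis and of the unfolded protein response that were called lie on opposite sides.

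Genes of the unfolded protein response, which enlarge the folding capacity of the endoplasmic reticulum, were higher as a group. Of 32 tested 26 were higher with both agents and none was lower (median log2 fold change 0.67), and both counts were the same without both replicate d arrays. Creld2, an ER chaperone, went from 556, 526, 460.4 and 572 to 2172, 2398, 1999 and 2328 (4.21-fold, adjusted p = 1.8e-08). Hyou1, a large ER chaperone, went from 162, 213, 299 and 254 to 1215, 983, 1079.7 and 709.6 (4.32-fold, adjusted p = 1.3e-05), and Pdia4, a disulfide isomerase, from 705, 741, 924 and 1081 to 3551, 3768, 2973 and 3372 (4.00-fold, adjusted p = 4.3e-07). Ddit3, the transcription factor CHOP of prolonged ER stress, went from 157, 347, 237 and 336 to 1325, 1404, 1280.5 and 1181 (5.05-fold, adjusted p = 6.4e-06). For these genes the lowest array with both agents lay at least 2-fold above the highest IL-1β array. Of the 26 higher genes 24 lay above all untreated arrays. Among all 2173 genes called higher 1212 did, and among all genes tested 23.6%. Xbp1, a transcription factor of this response, and P4hb, an abundant isomerase, were not called (95% intervals -0.03 to 0.27 and -0.16 to 0.28). Genes of the ATF4 amino acid response and the tRNA synthetases were higher in 23 of 38 and lower in 3 (median 0.40). Chac1, which breaks down glutathione, went from 56.4, 85.6, 72.9 and 105 to 267, 232, 279.9 and 238 (3.25-fold, adjusted p = 1e-05), and Nupr1, a stress-induced nuclear protein, was 2.65-fold higher (adjusted p = 7e-07). The cystine carrier Slc7a11 went against the list, from 298, 249, 226 and 226 to 77.2, 78.6, 76.2 and 81.9 (3.16-fold lower, adjusted p = 1.2e-07), as did the glutamine carrier Slc1a5 (1.62-fold lower, adjusted p = 0.00035) and Cth, which makes cysteine (1.96-fold lower, adjusted p = 4.2e-05).

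The Ddit3 and Chac1 windows are shown for the core of the ER stress response element, CCACG, and for TGATGNAA, the element that ATF4 and its partners are known to bind. CCACG stood in 84.0% of the 25 promoters of the unfolded protein response list and in 45.1% of those of genes tested. It stood in 81.0% of the 21 promoters of the higher members of that list. Among the 1731 promoters of all genes called higher it stood in 51.0%. TGATGNAA stood in 34.4% of the 32 promoters of the ATF4 list and in 2.21% of those of genes tested. It stood in 31.6% of the 19 of the higher members and in 2.25% of those of all genes called higher. In Chac1 it begins 167 bases before the start.
Ddit3 (chr7:65001445-65001744, plus strand): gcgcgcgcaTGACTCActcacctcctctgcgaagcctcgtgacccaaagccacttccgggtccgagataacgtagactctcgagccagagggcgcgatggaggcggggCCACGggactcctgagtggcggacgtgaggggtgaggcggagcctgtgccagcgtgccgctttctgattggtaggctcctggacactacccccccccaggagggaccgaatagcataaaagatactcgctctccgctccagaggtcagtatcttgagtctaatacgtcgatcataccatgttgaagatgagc
Chac1 (chr3:126795881-126796180, plus strand): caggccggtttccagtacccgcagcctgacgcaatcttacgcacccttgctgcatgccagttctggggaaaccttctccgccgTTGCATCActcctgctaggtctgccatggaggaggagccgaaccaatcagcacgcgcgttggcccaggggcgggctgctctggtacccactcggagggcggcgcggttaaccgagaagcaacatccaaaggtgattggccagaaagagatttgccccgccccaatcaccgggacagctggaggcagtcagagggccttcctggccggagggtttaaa

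Genes of hexosamine metabolism and of N-glycan assembly were higher more often than lower. Of 34 genes of the hexosamine pathway and of N-glycan precursors 20 were higher and 4 lower (median log2 fold change 0.34). Gnpda1, which turns glucosamine phosphate into fructose phosphate and so leads it to glycolysis, went from 162, 187, 206 and 219.7 to 416, 421, 405 and 298 (1.98-fold, adjusted p = 9.2e-05). Amdhd2, which removes the acetyl group from N-acetylglucosamine phosphate, was 2.50-fold higher (adjusted p = 0.0022), and Oga, which removes N-acetylglucosamine from proteins, 2.35-fold higher (adjusted p = 0.0029). The other probe sets of Oga were not called (adjusted p = 0.081 and 0.087). Gfpt2, a form of the enzyme that makes glucosamine phosphate in the first place, was lower, at 1208, 1229, 1091 and 1452 with IL-1β and 717, 863, 823 and 998 with both agents (1.47-fold, adjusted p = 0.002). It remained far above the untreated mean of 91.7 ± 3.76. Of other genes on the way of glucosamine into the pathway, named after their values were seen, Nagk, Pgm3, Gnpda2 and the hexokinases Hk1 and Hk2 were not called (Hk2 passed without the IL-1β array a, adjusted p = 0.0238), Gnpnat1 was 0.21 higher on the log2 scale (adjusted p = 0.027, but 0.0716 and 0.0707 without the both-agents array b or c and 0.0651 and 0.0565 without the IL-1β array c or d) and the glucose transporter Slc2a1 had a log2 fold change of -0.54 (adjusted p = 4.2e-05). Txnip, an arrestin family protein that glucose and its derivatives induce, read 18.9, 51.8, 19.9 and 55.8 with IL-1β and 1910.3, 2172, 1812 and 1954 with both agents (60.6-fold higher, adjusted p = 1.2e-07). Its relative Arrdc4 went the same way, from 30.4, 33.2, 30.5 and 64.8 to 195, 198, 211 and 224 (5.50-fold, adjusted p = 7e-06). They were the largest rises of the 36 genes of glucose transport and glycolysis. Of these genes 5 were higher (13.9%) and 6 lower (16.7%), beside 15.8% and 14.8% of all genes. The glucose transporter Slc2a3 was 2.74-fold lower and the lactate transporter Slc16a1 2.07-fold lower (adjusted p = 1.5e-05 and 6.8e-05), and the glycolytic enzymes Aldoa and Eno1 were not called (95% intervals -0.07 to 0.38 and -0.26 to 0.11), although Aldoa passed as higher with array quality weights (log2 difference 0.31, adjusted p = 0.0179). Of 14 genes of the response to osmotic stress 5 were higher and 2 lower. Isyna1, which makes inositol, went from 67.9, 53.1, 67.0 and 48.1 to 436, 371, 447 and 318 (6.66-fold, adjusted p = 6e-08), and Slc5a3, which imports it, from 67.9, 61.0, 50.5 and 54.0 to 244, 208, 274 and 326 (4.48-fold, adjusted p = 4.7e-07). The aldose reductase Akr1b1 was not called (95% interval -0.00 to 0.43).

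Redox and metabolic genes were divided. Of 37 NRF2 targets and redox genes 10 were higher and 11 lower. The higher count was 4 without the both-agents array a, 5 without b, and 6 without the IL-1β array a or b. Nqo1, a quinone reductase, was 1.41-fold higher (adjusted p = 0.0015), while Txnrd1, the reductase of thioredoxin, was 2.13-fold lower (adjusted p = 6.7e-06) and Sod2, the mitochondrial superoxide dismutase and an NF-κB target, 1.71-fold lower (adjusted p = 0.00014). Of 29 genes of cholesterol and fatty acid synthesis 6 were higher and 7 lower, with the desaturase Scd 2.39-fold higher (adjusted p = 0.00014) and the sterol enzyme Fdft1 1.58-fold lower (adjusted p = 0.00027). Lysosome and autophagy genes were higher in 12 of 35 and lower in 2, among them the collagen-degrading cathepsin Ctsk, 1.66-fold higher (adjusted p = 5.7e-06). Of 20 FoxO targets and mTOR inhibitors 6 were higher and 2 lower, and Sesn3, a sestrin that restrains mTOR, was 3.62-fold higher (adjusted p = 5.4e-06). Heat shock genes were higher in 6 of 22 and lower in 1. The small chaperone Cryab went from 65.0, 74.2, 60.0 and 46.9 to 346, 330.2, 368 and 261 (5.33-fold higher, adjusted p = 1.8e-07) and the large one Hsph1 from 1153, 964, 859 and 945 to 414, 482, 429.9 and 428 (2.23-fold lower, adjusted p = 1.6e-06). Genes of the hypoxia response were higher in 10 and lower in 10 of 24. Egln3, an oxygen-sensing hydroxylase, was 4.42-fold lower and Adm, adrenomedullin, 2.82-fold lower, but Car9, a carbonic anhydrase, was 2.02-fold higher (adjusted p = 4.5e-08, 2.5e-08 and 3.4e-06).

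Contractile and SRF target genes were lower in 15 of 30 and higher in 1. All 15 lower genes lay below every untreated array, as did 978 of all 2039 genes called lower. Tpm1, a tropomyosin, went from 759, 617, 758 and 847 to 219.7, 216, 232 and 306 (3.07-fold, adjusted p = 1.6e-06), with 3 of its other probe sets lower and 3 not called. Ccn2, a matricellular protein of the same list, was not called (95% interval -0.23 to 0.26). Of 22 syndecans, glypicans and integrins 8 were lower and 1 higher, with the integrin chain Itgb3 9.31-fold lower (adjusted p = 1.3e-06) and the abundant chain Itgb1 not called (95% interval -0.27 to 0.09). Of 22 apoptosis genes 7 were lower, among them the NF-κB targets Birc3 (3.22-fold, adjusted p = 1.2e-06) and Bcl2a1 (4.16-fold, adjusted p = 4.7e-05), and 4 were higher, among them the inflammatory caspase Casp4 (2.14-fold, adjusted p = 1.1e-05). In metal handling 5 of 17 genes were lower and 4 higher. The iron exporter Slc40a1 rose at least 5.78-fold (adjusted p = 0.00026) where the transferrin receptor Tfrc fell 2.90-fold (adjusted p = 9.7e-07). Ribosomes, mitochondria and the proteasome are machinery that every cell runs. None of 20 ribosomal protein genes was called in limma (2 at an unadjusted p under 0.05, none by analysis of variance, and 5 higher after quantile normalization), and Rpl3 and Rps23 had 95% intervals of -0.29 to 0.15 and -0.21 to 0.22. Of 41 genes of oxidative phosphorylation 8 were higher (19.5%, beside 15.8% of all genes). The largest rise was 1.59-fold, for Ndufb10 (adjusted p = 0.0089, and 0.0524 with the 8 arrays fitted alone). The higher members were 16 without the both-agents array d, and 4 without the both-agents array b or the IL-1β array d. Of 32 proteasome genes 3 were higher (9.38%) and 4 lower (12.5%), no larger shares than among all genes. The largest change was that of the interferon-inducible activator subunit Psme2 (2.02-fold lower, adjusted p = 1.6e-05).

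**Figure D4:**
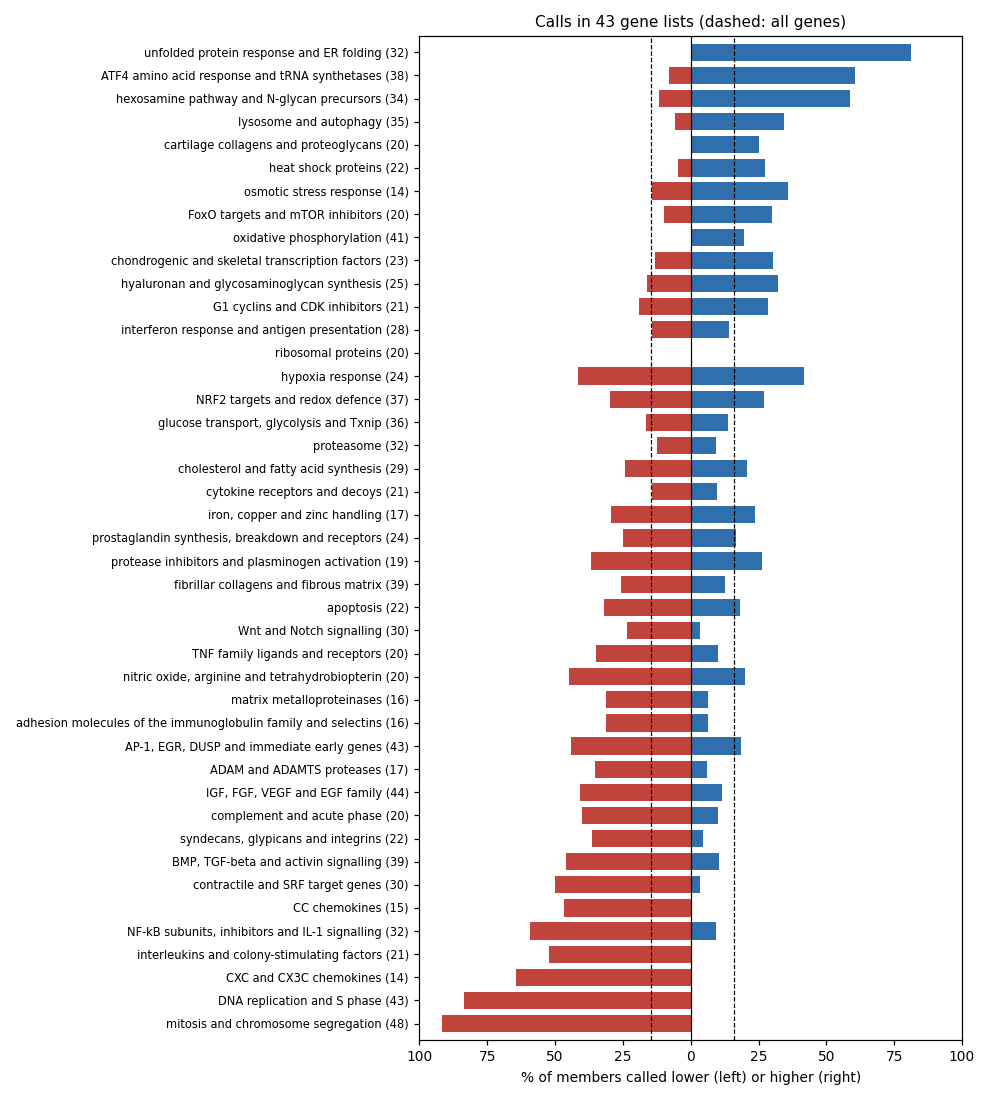
Share of the genes tested in each list that were lower (left) or higher (right) with both agents than with IL-1β alone, in percent (x axis), for each list (rows). Vertical lines mark 14.8% lower and 15.8% higher among all genes, and the list of mitosis reaches furthest to the lower side and that of the unfolded protein response furthest to the higher side.

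Some of the largest changes lay outside these lists. Nefh, a neurofilament chain, went from 418, 284, 275 and 253 to -7.83, -2.99, -6.52 and -33.2 (at least 52.7-fold lower, adjusted p = 9.4e-09), Ch25h, which makes the oxysterol 25-hydroxycholesterol, from 273, 269, 231 and 261 to 0.837, 4.60, 8.13 and 8.69 (at least 37.2-fold lower, adjusted p = 1.8e-08), and Slc7a8, a carrier of neutral amino acids, from 655, 513, 484 and 591 to 21.3, 17.8, 21.2 and 26.6 (25.9-fold lower, adjusted p = 8e-08). In all 3 genes every array with both agents lay far below every IL-1β array. Upward, Endou, a poly(U)-specific endoribonuclease, went from 7.15, 4.42, 0.645 and -3.17 to 121, 136, 96.9 and 139 (at least 20.2-fold, adjusted p = 9.2e-09). Fxyd2, a regulator of the sodium pump, went from 22.9, 22.2, 27.4 and 7.57 to 257, 203, 222 and 158 (11.5-fold, adjusted p = 1.7e-05), and Slc25a48, a mitochondrial carrier, was at least 10.2-fold higher (adjusted p = 2.5e-07). Untreated means were 59.1 ± 3.08 for Endou, 21.2 ± 4.41 for Fxyd2 and -1.84 ± 2.75 for Slc25a48. Tm4sf1, a tetraspanin-like membrane protein, went from 29.9, 45.0, 41.9 and 36.9 to 265, 279, 259 and 255 (6.96-fold, adjusted p = 1.3e-08). The rises of Ap3s2 (at least 10.3-fold) and Blmh (at least 7.32-fold) rested on IL-1β arrays with negative signals, of -26.9, 1.53, -36.5 and -233 for Ap3s2 and 12.4, 77.7, 56.4 and -351 for Blmh, and that of Blmh was not called when the 8 arrays were fitted alone (adjusted p = 0.058).

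**Figure D5:**
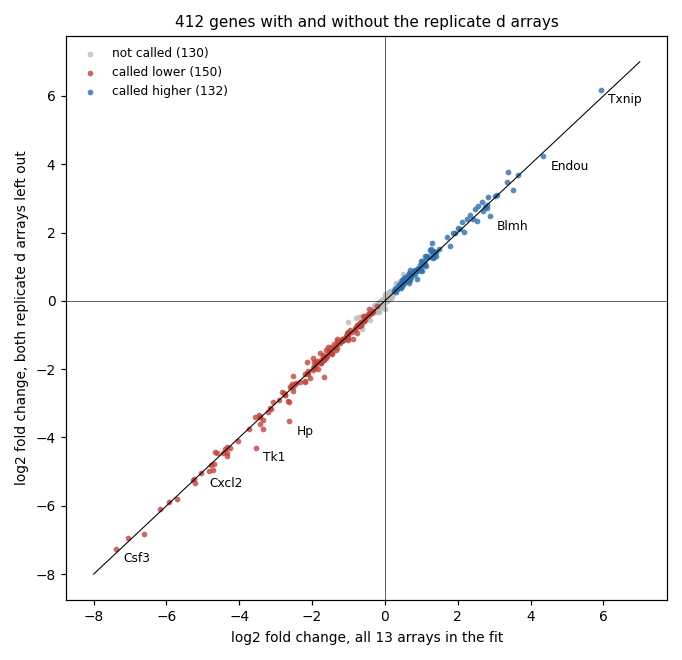
Log2 fold change of both agents against IL-1β alone with all arrays (x axis) and without both replicate d arrays (y axis) of 412 genes selected by size of change and by list. Points are coloured by their call with all arrays, of which 150 were lower, 132 higher and 130 not called, and lie along the diagonal line of equality.

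Counts of a few list members moved by more than 1.5 times when both replicate d arrays were left out, beside those given above. Higher members went from 3 to 6 in the proteasome, from 1 to 3 in Wnt and Notch signalling and among contractile genes, from 1 to 2 among ADAM and ADAMTS proteases and among syndecans, glypicans and integrins, and from 0 to 1 among CC chemokines, and lower members of oxidative phosphorylation from 0 to 1. With the replicate letter as a block, higher members were 3 of the matrix metalloproteinases and 3 of Wnt and Notch signalling. They were 2 of the ADAM and ADAMTS proteases, of contractile genes and of syndecans, glypicans and integrins, and 1 of the CC chemokines. Lower members with the block were 5 of the cytokine receptors, 3 of oxidative phosphorylation, 2 of the heat shock proteins and 1 of the cartilage collagens and proteoglycans.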

How the data were processed

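RNA of 13 flasks was hybridised to Affymetrix Rat 230 2.0 arrays (1 array a flask, 3 untreated, 2 glucosamine, 4 IL-1β, 4 both agents). The deposited values are linear signal intensity, 1 per probe set, on a scale to which the authors brought each array. The labels name MAS5 (version 5), which by the methods produced the scan files, whereas Probe Profiler computed the values with a global scaling to 100. The deposited values include signals below 0. Array means were 127 to 145 and 75th percentiles 112 to 119. Control probe sets (57 of 31099) were left out, any signal under 5.71, the 25th percentile over the 13 arrays, was raised to it before log2, and probe sets that no array read above it were dropped, leaving 29263. Raw scans were not used here.

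All 4 groups entered 1 linear model per probe set, fitted with limma (version 3.58.1, R 4.3.3, 9 residual degrees of freedom). Variances were moderated with a trend on mean signal (eBayes), and a probe set was called where its p, adjusted over all tested by Benjamini-Hochberg, was under 0.05. Of the probe sets 20826 carried 1 gene symbol, 436 several and 9780 none. Genes were named from single-gene probe sets alone and represented by the one of highest mean log2 signal, and for 43 genes probe sets were called in opposite directions. Named were the 15 largest falls and rises without overlap, up to 4 called genes a direction and 3 abundant ones not called in each list, and genes the study's text discusses, with marker genes chosen after their values were seen. The members and lists were chosen with earlier results of these data known. The model was tested on simulated data. Alternatives changed the arrays fitted, the floor (0.785 or 14.2), the scaling, the filter, the variance model and the test.

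Groups share replicate letters, which the labels do not tie to a day or culture. Deviations from the group mean correlated at 0.38, 0.45, 0.53 and 0.80 between arrays of the same letter (a to d). Different letters of a to c correlated at 0.33 to 0.56, so these values do not show that letters pair. With both replicate d arrays left out of the group means, same letters gave -0.001 to 0.05 and different letters -0.162 to 0.143. The replicate letter as a block was fitted as an alternative alone. The number of arrays limits the precision, and intervals are 95% from the model. Tables and drawings used Python 3.11.15, numpy 2.4.6, pandas 2.3.3, scipy 1.17.1 and matplotlib 3.10.9.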

Additional observations from a re-analysis of the deposited data

Results flagged for a closer look

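Within each group of 4 arrays, a value counts as far from the rest when its gap to the nearest array exceeds Dixon's 95% critical share of the group's range on the floored log2 scale (or, for measures of a whole array, on their own scale). By chance about 1 group in 20 exceeds this, but that rate does not hold near the floor. Where all other arrays of a group are at the floor, the share is 1 whatever the remaining array reads. Over 382 pairs of a named gene and a group 27 did, 16 of them by a replicate d array, and each number below is that share of the range.

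Whole arrays first. The replicate d array had the highest median signal of its group, at 37.9 with IL-1β (0.887) and 38.7 with both agents (0.957), and the lowest 1st percentile, at -31.0 (0.981) and -36.8 (0.975). Fewer of its probe sets were at the floor with both agents (18.3%, 0.868).

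Among arrays with both agents, replicate d was highest for Adipoq (0.98), Bmp7 (0.973), Ccl3 (1), Il1a (1) and Il1b (1), of which the Ccl3, Il1a and Il1b signals were the sole ones above the floor, at 5.96 for Il1b. It was also highest for Irak4 (1) and Pgm3 (0.834). It was lowest for Cd68 (0.996), Gnpda1 (0.886) and Irak3 (0.954). Other arrays were far from the rest for Car9 (replicate a highest, 0.87), Cd40 (a highest, 1), Ptprc (a highest, 0.911), S100a8 (c highest, 0.943), Slc7a2 (b lowest, 0.849) and Slco2a1 (c highest, 1).

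Among arrays with IL-1β alone, replicate d was highest for Arrdc4 (0.883), Inhba (0.914), Irak4 (1), Pgm3 (0.86) and Plat (0.86) and lowest for Fxyd2 (0.836). Replicate c was highest for Amdhd2 (0.916), B3gat3 (0.939) and Irak1 (0.832), and replicate a was lowest for Cth (0.902) and highest for Endou (1). Of these genes Adipoq, Irak4, Pgm3, Ptprc and S100a8 were not called. The others were called with all arrays and without both replicate d arrays.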

How the results depend on the processing

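Over all genes, 6822 probe sets were called (3473 higher, 3349 lower). Array quality weights gave 10896 (5767 higher, 5129 lower), the methods' analysis of variance with the Tukey test on linear signals 2704 (1227 higher, 1477 lower), and 1 probe set per gene 4212 (2173 higher, 2039 lower), since fewer features were then counted. The cause of the first and second was not tested, although the weights of the replicate d arrays were 0.0568 and 0.0749. With single arrays left out the counts were 5731 to 7999 (higher 2803 to 4266, lower 2885 to 3733). The 8 arrays alone gave 4766, both replicate d arrays left out 9148, and the replicate block 9181 (4760 higher, 4421 lower). The block ended the call of none of the genes named and added 1, Akr1b1 (adjusted p = 0.0409). The other floors, scalings, filters and variance model gave 6493 to 6981.

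Of 191 genes named, 147 were called, and 142 of these passed in the same direction under the 19 limma alternatives. Exceptions were Blmh and Ndufb10 (adjusted p = 0.0584 and 0.0524 with the 8 arrays alone), Cd68 (0.0862 there, 0.0669 with the lower floor, and 0.0533 without the IL-1β array a), Mmp3 and Gnpnat1 (0.0698 with the 8 arrays alone, 0.087 without the variance trend). Of genes not called, 11 passed under some alternative, and none changed direction. Signals near or below background limit the folds given as "at least".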
